A study of Mus musculus with 24 samples.

Results

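The small leucine-rich proteoglycans analyzed here were 7 genes of the mouse liver, decorin (Dcn), biglycan (Bgn), lumican (Lum), fibromodulin (Fmod), prolargin (Prelp), osteoglycin (Ogn) and asporin (Aspn). They were chosen by name as members of 1 protein family, and each matched 1 of the 56205 rows of the count table. The table held whole-liver poly(A) RNA from 24 libraries of C57BL/6J mice, for which the labels name no engineered allele. For 20 weeks, 12 of them were fed the high fat diet that the labels call FFD, a feed that holds palm oil, fructose and cholesterol, while 12 were fed its control diet. The design text gives 6 animals per diet and sex, whereas the labels of single libraries state no sex. The question addressed by the design is which liver transcripts change with a diet that leads to steatohepatitis and fibrosis.

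Small leucine-rich proteoglycans are secreted proteins with a curved array of leucine-rich repeats, and most carry chondroitin, dermatan or keratan sulfate chains. They bind to the surface of collagen fibrils and regulate fibril assembly and diameter, and decorin and biglycan also bind growth factors and receptors such as TGF-β and Toll-like receptors. In the liver they are made mainly by stellate cells, portal fibroblasts and other mesenchymal cells, and several of them are deposited in fibrotic septa. Decorin, biglycan and asporin belong to the same class, in which decorin and biglycan carry chondroitin or dermatan sulfate chains and asporin has an aspartate-rich stretch. Lumican, fibromodulin and prolargin belong to the class named for keratan sulfate, and osteoglycin belongs to a separate class.

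Depth was 14468418 to 22112552 counts per library. The libraries formed 2 sets, defined here from the counts because the labels of single libraries state no sex, and each set held as many libraries per diet as the design gives animals per diet and sex. Replicates 1 to 6 of either diet held 2664 to 6285 counts of Xist, the RNA that silences an X chromosome, and 0 counts of Y-linked Ddx3y (Xist-high set, 6 libraries per diet). Replicates 7 to 12 of either diet held 0 to 3 counts of Xist and 448 to 1016 counts of Ddx3y (Xist-low set, 6 libraries per diet). Control replicate 10 stood apart, with the lowest total and a TMM scaling factor of 0.679, against 0.851 to 1.01 in the other control libraries. High fat replicate 9 had the highest factor, 1.341, against 0.9945 to 1.196 in the other high fat libraries. The tissue label was met by its defining markers: the 8 hepatocyte markers summed to 39370 to 94250 CPM (counts scaled by the TMM-corrected library total) in high fat livers and to 88850 to 135700 CPM in control livers.

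In GENCODE M21 (GRCm38, the assembly that mm10 also names), the genes lie in 4 places. Dcn (ENSMUSG00000019929, chr10:97479609-97518143, plus strand) and Lum (ENSMUSG00000036446, chr10:97565128-97572703, plus strand) are next to each other, with 46985 bases between them. Prelp (ENSMUSG00000041577, chr1:133910304-133921414, minus strand) and Fmod (ENSMUSG00000041559, chr1:134037254-134048277, plus strand) are also next to each other and point away from one another across 115840 bases. Aspn (ENSMUSG00000021388, chr13:49544443-49567565, plus strand) and Ogn (ENSMUSG00000021390, chr13:49608046-49624501, plus strand) flank osteomodulin (Omd), and all of these lie within Cenpp on the opposite strand. Bgn (ENSMUSG00000031375, chrX:73483602-73495933, plus strand) lies alone among unrelated genes. Aspn shares 7 exonic bases with Cenpp, which held 0 to 23 counts, and Prelp shares 350 exonic bases with the antisense transcript Gm15851, which held 0 counts in every library. Whether strand was used in counting these libraries is not given in the sources used here, so reads of Aspn and Cenpp in the shared bases could not be told apart.

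Promoter windows from RefSeq (GRCm38.p6, 250 bases before to 50 after the annotated start) matched 5 of the 7 members, Bgn, Fmod, Prelp, Ogn and Aspn, and not Dcn or Lum. The windows of 3 members that rose and of Ogn, which did not pass the test, are shown so that their base composition can be compared; each reads 5′ to 3′ on the strand of the gene, and capitals mark matches to the letters CAGACA or TATAAA.
Bgn, chrX:73483351-73483650, plus strand: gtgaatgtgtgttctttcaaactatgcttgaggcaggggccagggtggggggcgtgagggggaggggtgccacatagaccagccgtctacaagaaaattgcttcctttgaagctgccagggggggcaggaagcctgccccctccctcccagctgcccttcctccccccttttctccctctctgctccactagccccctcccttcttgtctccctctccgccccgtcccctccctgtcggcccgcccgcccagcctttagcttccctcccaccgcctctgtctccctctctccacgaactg
Fmod, chr1:134037004-134037303, plus strand: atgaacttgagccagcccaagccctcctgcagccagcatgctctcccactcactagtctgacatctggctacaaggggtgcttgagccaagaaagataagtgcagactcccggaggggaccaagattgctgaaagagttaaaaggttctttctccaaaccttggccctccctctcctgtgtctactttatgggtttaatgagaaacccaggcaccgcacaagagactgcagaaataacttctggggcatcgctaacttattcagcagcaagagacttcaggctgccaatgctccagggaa
Prelp, chr1:133921352-133921651, minus strand: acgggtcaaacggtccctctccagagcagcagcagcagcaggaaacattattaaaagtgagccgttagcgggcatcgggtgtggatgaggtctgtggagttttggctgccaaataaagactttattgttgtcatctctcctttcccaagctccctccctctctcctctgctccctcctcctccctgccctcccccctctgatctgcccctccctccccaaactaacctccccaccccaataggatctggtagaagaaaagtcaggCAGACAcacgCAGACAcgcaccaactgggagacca
Ogn, chr13:49607765-49608064, plus strand: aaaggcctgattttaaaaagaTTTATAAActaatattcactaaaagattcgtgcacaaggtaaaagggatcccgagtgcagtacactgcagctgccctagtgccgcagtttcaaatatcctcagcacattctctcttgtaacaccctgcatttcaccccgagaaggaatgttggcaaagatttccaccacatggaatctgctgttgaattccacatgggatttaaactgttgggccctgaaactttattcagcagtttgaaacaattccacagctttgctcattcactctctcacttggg
GC content was 63.7% for Bgn, 55.3% for Prelp, 51% for Fmod, 42.3% for Ogn and 31% for Aspn, against a median of 52.7% over 32851 windows. The letters CAGACA, which hold the CAGAC core bound by SMAD proteins, were searched on both strands and were found in Prelp only, at 15 and 25 bases past the start, whereas 21% of all windows hold them. The shorter core CAGAC was not searched, and the Fmod window printed above also holds it. TATAAA was found on both strands of Ogn and Aspn, 178 to 229 bases before the start, and 13.6% of all windows hold it. In Ogn the matches on the opposite strands overlap. The AP-1 letters TGANTCA were in none of these 5 windows and in 7.81% of all windows. These matches describe letters in the windows and are not measured binding sites.

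Of the 7 members, 5 were higher in high fat livers by edgeR's quasi-likelihood test (calls needed an adjusted p no higher than 0.01 and a log2 fold change beyond 0.5 in either direction) and 0 were lower (DESeq2 and limma-voom gave the same 5 and 0, and at an unadjusted p under 0.05 edgeR also gave 0 lower). Among all 17913 genes tested, 13.2% were called higher and 4.99% lower. Lum and Fmod rose the most, at about the same fold, followed by Bgn, Prelp and Dcn. Ogn and Aspn were not called in either direction. All 7 passed the filter on low counts, which asked for at least 1 count in at least 12 libraries. Over all 24 libraries every member overlapped between diets, whereas 1.48% of all genes had every high fat library above every control library. In these bulk samples a different number of cells of a type and a different amount of RNA per cell cannot be told apart.

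Lumican, which limits the lateral growth of collagen fibrils, was measured at 233 to 1443 counts in high fat livers and at 52 to 268 counts in control livers. In CPM, the lowest, median and highest libraries were at 11.6, 23.2 and 61.0 in high fat livers and at 3.30, 6.83 and 15.2 in control livers. Of the 12 high fat libraries, 9 were above every control library, and the overlap came from control replicate 11, since the next highest control library was at 9.61 CPM. Lum was 4.30-fold higher (log2 fold change 2.11 ± 0.29 SE, adjusted p = 5.19e-06, n = 12 per diet).

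Fibromodulin binds collagen at the sites that lumican also uses and takes part in cross-linking. Its levels were low, with 9, 116 and 331 counts as the lowest, median and highest in high fat livers and 4, 24.5 and 62 counts in control livers. These corresponded to 0.480, 6.21 and 13.3 CPM in high fat livers and 0.407, 1.28 and 3.001 CPM in control livers. High fat replicate 3, the lowest, lay among the control libraries, and 10 of the 12 high fat libraries were above every control library. Fmod was 4.19-fold higher (log2 fold change 2.07 ± 0.38 SE, adjusted p = 1.53e-04).

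Biglycan, which binds collagen and, in soluble form, Toll-like receptors on macrophages, overlapped between diets in a single high fat library. Its lowest, median and highest libraries were at 135, 250 and 532 CPM in high fat livers and at 60.5, 120 and 175 CPM in control livers. That library was replicate 3, and the other 11 of 12 were above all control libraries. Bgn was 2.31-fold higher (log2 fold change 1.21 ± 0.18 SE, adjusted p = 1.83e-05).

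Prolargin, which anchors basement membranes to the underlying collagen, was at 54.3, 134 and 172 CPM in high fat livers and at 25.04, 77.0 and 111 CPM in control livers, again as lowest, median and highest. High fat replicate 3 was again the lowest of its diet, control replicate 10 was the lowest of all, and 11 of the 12 high fat libraries were above every control library. Prelp was 1.74-fold higher (log2 fold change 0.80 ± 0.18 SE, adjusted p = 0.00107).

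Decorin, which binds collagen I and sequesters TGF-β, was at 162, 195 and 279 CPM in high fat livers and at 84.0, 122 and 179 CPM in control livers. All 12 high fat libraries were above the control median, and 9 were above every control library. Dcn was 1.57-fold higher, the smallest rise of those called (log2 fold change 0.65 ± 0.13 SE, adjusted p = 3.89e-04).

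Osteoglycin, also called mimecan, held 3 to 51 counts in high fat livers and 3 to 59 counts in control livers. Its lowest, median and highest libraries were at 0.160, 1.17 and 2.85 CPM in high fat livers and at 0.305, 1.34 and 2.84 CPM in control livers, so the diets overlapped over nearly their whole range. The log2 fold change was -0.14 ± 0.30 SE (adjusted p = 0.737), which is positive, at 0.12, with scaling by library totals and uncalled there too. Asporin, which binds collagen and TGF-β, held 0 to 5 counts per library in either diet, and 11 high fat and 10 control libraries held 3 counts or fewer. A diet difference of Aspn was not detectable at this depth (log2 fold change -0.69 ± 0.68 SE, adjusted p = 0.440).

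**Figure D1:**
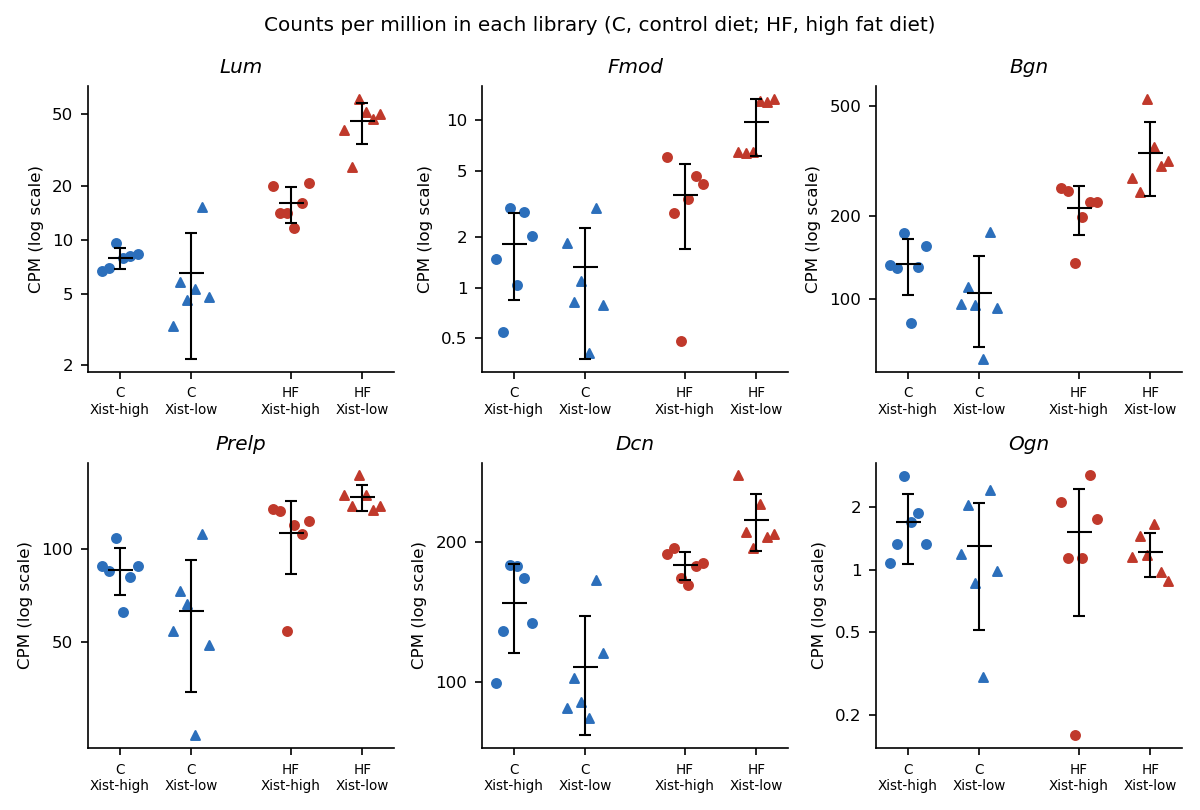
CPM of 6 members in each of the 24 libraries on log axes, with circles for the Xist-high and triangles for the Xist-low set and bars for mean ± SD of 6 libraries. For Lum the high fat libraries of the Xist-low set sit between 25.5 and 61.0 CPM, above all control libraries, while for Ogn the diets overlap. Aspn, with 0 to 5 counts per library, is not drawn.

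The members were called higher chiefly in the Xist-low libraries when the diets were compared within each set. There, all 5 of Lum, Fmod, Bgn, Prelp and Dcn were called higher, where 14.4% of all genes were, and all 5 had every high fat library above every control library, which held for 12.6% of all genes. In the Xist-high libraries only Lum was called higher, where 2.9% of all genes were called higher and 3.78% in either direction, and only Lum had diets that did not overlap, as did 3.51% of all genes. Each comparison within a set had 6 libraries per diet.

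Lum in the Xist-low set was at 25.5, 49.0 and 61.0 CPM in high fat livers and at 3.30, 5.05 and 15.2 CPM in control livers, as lowest, median and highest. In the Xist-high set it was at 11.6, 15.04 and 20.9 CPM in high fat livers and at 6.68, 7.99 and 9.61 CPM in control livers. The high fat libraries of the sets thus did not overlap with each other for Lum. The same held, narrowly, for Dcn (at most 194.4 against at least 194.7 CPM) and Fmod (6.015 against 6.395 CPM). It also held for Col1a1 and Col3a1, and not for Bgn, Prelp or Ogn. The share of all genes without such overlap was not counted. The log2 fold change of Lum was 2.84 ± 0.33 SE (adjusted p = 1.76e-05) in the Xist-low and 1.03 ± 0.15 SE (adjusted p = 5.45e-04) in the Xist-high set. The difference between these changes, tested as the interaction of diet and set in edgeR, was 1.80 ± 0.36 SE on the log2 scale (adjusted p = 0.00236). Lum was the only member called in this test, in which 4.04% of all genes were called and 2.57% were called with a positive sign.

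For the other members that rose, the change was larger in the Xist-low set but the difference between sets did not pass. The log2 fold changes in the Xist-low and the Xist-high set were 1.07 and 0.28 for Dcn (interaction 0.78 ± 0.22 SE, adjusted p = 0.0213). They were 1.71 and 0.68 for Bgn (interaction 1.01 ± 0.30 SE, adjusted p = 0.0322). For Fmod they were 2.84 and 0.99 (interaction 1.85 ± 0.63 SE, adjusted p = 0.0602), and for Prelp 1.23 and 0.40 (interaction 0.82 ± 0.32 SE, adjusted p = 0.114). With DESeq2 the interaction passed for Dcn (adjusted p = 0.00386) and Bgn (adjusted p = 0.00874) as well. Without control replicate 11, the highest control library of the Xist-low set for each of these members, it passed for Dcn (0.94, adjusted p = 0.00122) and Bgn (1.22, adjusted p = 0.00405), and for Dcn also without control replicate 1 (0.87, adjusted p = 0.00746). Ogn changed by -0.11 and -0.14 in the Xist-low and Xist-high sets, and neither was called. The sets coincide with blocks of replicate numbers, so sex, which the labels do not give per library, and any other difference between the sets cannot be told apart.

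**Figure D2:**
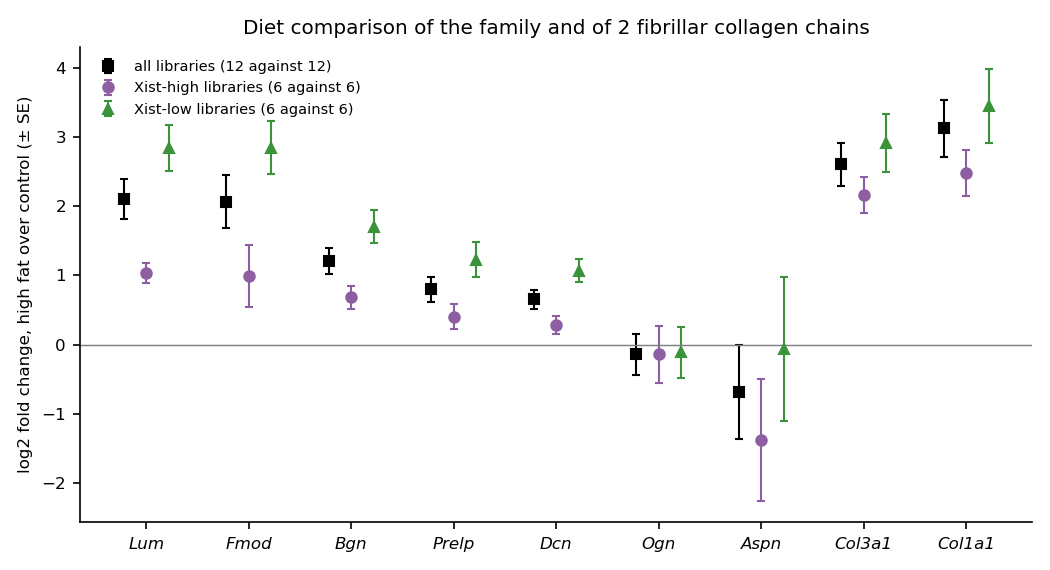
Log2 fold change of the high fat diet over the control diet (± SE) for the 7 members and for Col1a1 and Col3a1, over all 24 libraries and within the Xist-high and Xist-low sets of 12. Lum is at 1.03 in the Xist-high and 2.84 in the Xist-low set, and Ogn lies near 0 in both.

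Levels were compared between members only per length, as RPKM (CPM divided by the kilobases of the union of annotated exons). On the high fat diet the order was Bgn (45.3 ± 16.3 RPKM, SD, n = 12), Prelp (35.8 ± 7.87), Dcn (34.4 ± 5.57), Lum (12.7 ± 7.30), Fmod (2.02 ± 1.28), Ogn (0.535 ± 0.263) and Aspn (0.0211 ± 0.0279). On the control diet it was Dcn (21.9 ± 6.26 RPKM), Prelp (20.6 ± 6.85), Bgn (19.6 ± 5.95), Lum (2.95 ± 1.27), Ogn (0.585 ± 0.278), Fmod (0.475 ± 0.288) and Aspn (0.0358 ± 0.0398). The first 3 of either order overlapped in range, so did Fmod and Ogn, and Lum overlapped with neither of its neighbors in either order. Dcn exceeded Prelp in 6 of 12 control libraries, and Bgn exceeded Prelp in 11 of 12 high fat libraries. Fmod exceeded Ogn in 12 of 12 high fat libraries and fell below it in 7 of 12 control libraries.

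The summed level of the family was 131 ± 33.4 RPKM (SD) in high fat livers and 66.1 ± 18.7 RPKM in control livers. As a share of that sum, Lum made up 9.13% ± 3.35 (SD) in high fat livers and 4.42% ± 1.07 in control livers. Fmod made up 1.45% ± 0.764 and 0.684% ± 0.302, and Bgn 34.0% ± 3.74 and 29.6% ± 3.26, in the same order. Dcn made up 27.3% ± 5.33 and 33.7% ± 6.26, and Prelp 27.6% ± 3.58 and 30.7% ± 4.45. These shares depend on the length taken for each gene: with the longest transcript, which for Bgn has 2666 bases in place of 6099 bases of exons, Bgn made up 51.6% in high fat livers and 46.2% in control livers, and was then the highest member in both.

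**Figure D3:**
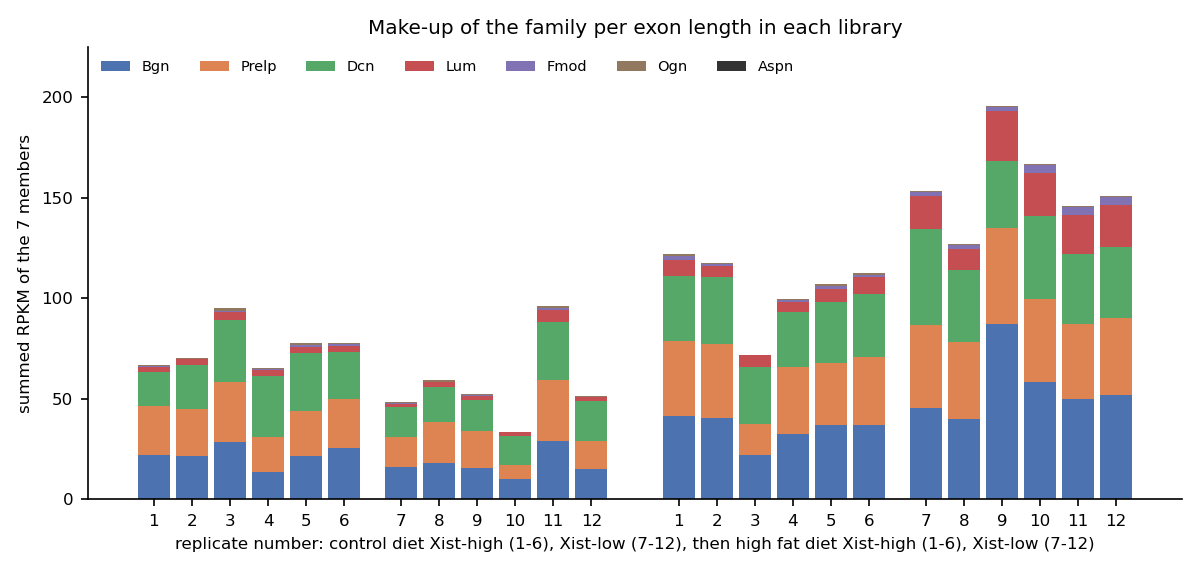
Stacked RPKM of the 7 members in each library, with 12 control libraries to the left and 12 high fat libraries to the right. The sum ranges from 33.6 to 96.1 RPKM in control livers and from 71.9 to 196 RPKM in high fat livers, and Bgn, Prelp and Dcn make up most of it in every library.

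Whether members rose by different amounts was tested with the log2 ratio of their counts within each library, which does not depend on library scaling. Of the 21 pairs of members, 18 differed between diets by a two-sided permutation test (100000 resamples, Benjamini-Hochberg adjusted p of at most 0.05 over the pairs). Of these, 5 hold Aspn, whose ratios at 0 to 5 counts depend on the 0.5 added to each count and are not described further, and 13 of the 15 pairs without Aspn passed. Lum rose more than its neighbor Dcn by 1.29 ± 0.23 SE on the log2 scale (adjusted p = 2.1e-04), and the ratio was above the control median in 12 of 12 high fat libraries. Lum also rose more than Bgn, by 0.78 ± 0.20 SE (adjusted p = 0.00215), and more than Prelp, by 1.13 ± 0.25 SE (adjusted p = 0.00108). Fmod rose more than its neighbor Prelp by 1.10 ± 0.34 SE (adjusted p = 0.00594). Bgn rose more than Prelp by 0.35 ± 0.10 SE (adjusted p = 0.00397) and more than Dcn by 0.51 ± 0.17 SE (adjusted p = 0.00534).

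Within the Xist-high and the Xist-low set, Lum rose more than Dcn by 0.70 and 1.88, and Bgn more than Prelp by 0.33 and 0.37, and with permutation within the sets 13 of the 15 pairs without Aspn passed as well. The changes of Lum and Fmod differed by 0.03 ± 0.35 SE (adjusted p = 0.926), and those of Dcn and Prelp by -0.16 ± 0.17 SE (adjusted p = 0.400), so neither pair was told apart. The ratio of Bgn to Fmod passed narrowly (-0.75 ± 0.34 SE, adjusted p = 0.0457), and it missed the threshold in 17 of the 24 fits that left out 1 library. Each of the 5 members called higher also rose relative to Ogn, from 0.87 ± 0.32 SE for Dcn (adjusted p = 0.0104) to 2.16 ± 0.40 SE for Lum (adjusted p = 3.15e-04).

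**Figure D4:**
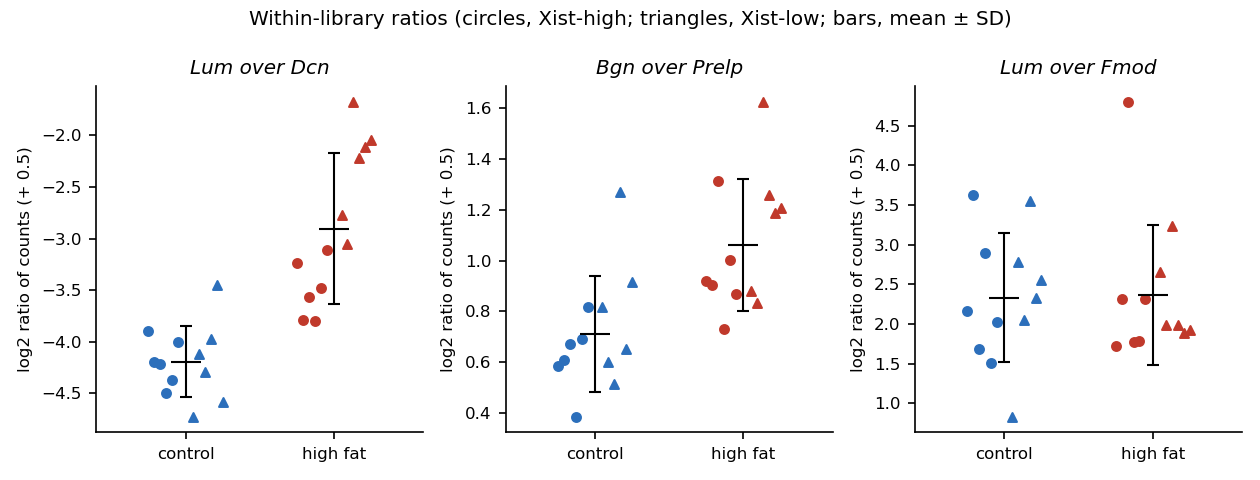
Log2 ratio of the counts of 2 members within each library, by diet, with circles for the Xist-high and triangles for the Xist-low set and bars for mean ± SD of 12 libraries. Lum over Dcn and Bgn over Prelp are higher in high fat livers, by 1.29 and 0.35, and Lum over Fmod differs by 0.03.

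Against the fibrillar collagen chains that these proteins coat, each of the 6 members other than Aspn changed less than the chain. Col1a1, a chain of collagen I, was at 34.4, 99.4 and 214 CPM in high fat livers and at 4.79, 8.41 and 55.1 CPM in control livers, as lowest, median and highest. Relative to Col1a1 these members changed by -1.31 ± 0.22 SE for Lum to -3.46 ± 0.41 SE for Ogn on the log2 scale, and all 6 ratios passed the permutation test (adjusted p of at most 3.97e-04). Every high fat library lay below the control median of all 6 of these ratios. Relative to Col3a1, the chain of collagen III, Lum changed by -0.76 ± 0.18 SE (adjusted p = 5.28e-04), Fmod by -0.79 ± 0.33 SE (adjusted p = 0.0215), Bgn by -1.54 ± 0.19 SE and Dcn by -2.05 ± 0.25 SE. The last 2 ratios had an adjusted p of 1.27e-05, from the smallest p that 100000 resamples can give, 1e-05. The interaction of diet and set was not called for Col1a1 (0.95 ± 0.63 SE, adjusted p = 0.384) or Col3a1 (0.74 ± 0.50 SE, adjusted p = 0.397).

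Within a diet, members were compared over its 12 libraries with each set centered on its own mean (15 pairs of 6 members, without Aspn, in 2 diets and by 2 measures, 60 permutation tests). Bgn and Prelp were the only pair that passed by both measures in both diets. On the high fat diet Pearson's r was 0.77 and Spearman's rho 0.80 (adjusted p = 0.0322 for each), and r stayed at 0.73 when the 2 libraries with the most extreme Bgn were dropped. On the control diet r was 0.92 (adjusted p = 0.003) and rho 0.87 (adjusted p = 0.0036), and r stayed at 0.83 when its 2 most extreme libraries were dropped. Within the sets r ranged from 0.83 to 0.96. Dcn and Ogn in control livers passed by rho (0.87, adjusted p = 0.0136) and not by r (0.75, adjusted p = 0.0623). Dcn and Bgn in high fat livers had an r of -0.05 (adjusted p = 0.912) and a rho of 0.15 (adjusted p = 0.714). Their r was 0.74 within the Xist-high and -0.41 within the Xist-low high fat libraries, and this difference was not tested. The median r of the 15 pairs was 0.42 in high fat livers and 0.65 in control livers, and this difference was not tested.

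**Figure D5:**
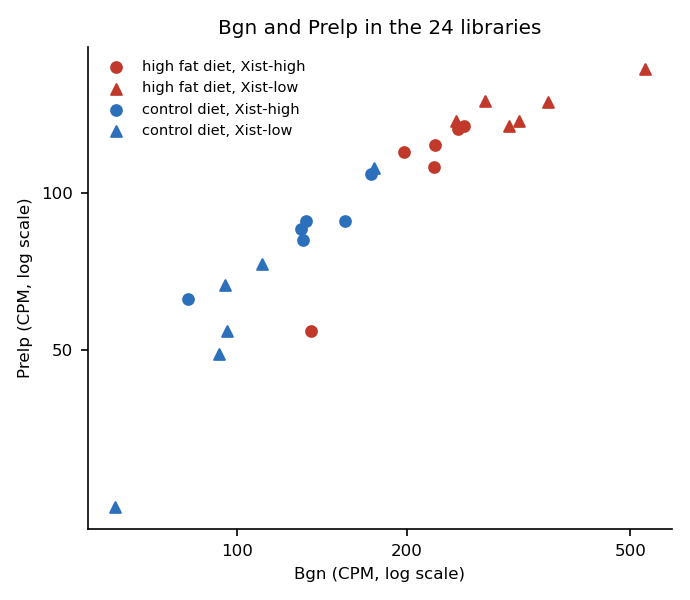
CPM of Prelp against CPM of Bgn in the 24 libraries on log axes, by diet (color) and set (shape). Control replicate 10, at 60.5 CPM of Bgn and 25.04 CPM of Prelp, is the lowest point, and high fat replicate 3, at 135 and 54.3 CPM, lies among the control libraries.

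The genes whose residual pattern was most like each member were sought among 13928 genes with a mean of at least 10 counts, by Pearson's r over the 24 libraries after the mean of each diet and set was removed. These values are a description over libraries that share depth and composition. For Bgn they were Pdgfrb (r = 0.95), a receptor of platelet-derived growth factor on stellate cells and pericytes, Ltbp3 (0.94), which binds latent TGF-β, and Ehd2 (0.92), a protein of caveolae. For Lum they were the matrix genes Sparc (0.88), Dpt (0.87) and Col6a2 (0.87). For Fmod they were Dpep1 (0.85), the glypican Gpc3 (0.84) and Upk3b (0.77), a mesothelial marker. For Dcn they were the acyl-CoA thioesterase Acot9 (0.85), the matrix protein Matn2 (0.79) and the endothelial proteoglycan Esm1 (0.79). For Prelp they were the spectrin Sptan1 (0.88), the transcription factor Tbx20 (0.87) and the netrin Ntn1 (0.87), and for Ogn they were Capn6 (0.83), Adamts2 (0.81), which trims procollagen, and the collagen receptor Ddr2 (0.80). None of these genes was among the 3 most like a further member. Between members, the same measure was highest for Bgn and Prelp (0.86) and lowest for Bgn and Dcn (0.29).

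Of 10 other genes of the extended family, 7 were tested and none was called (0 higher and 0 lower by edgeR, DESeq2 and limma-voom; 1 higher and 0 lower at an unadjusted p under 0.05; 1 higher with library totals), beside the background of 13.2% and 4.99% given above. In the Xist-high libraries alone, 1 of the 7 tested genes was called higher, beside 2.9% of all genes. In the Xist-low libraries 0 were, beside 14.4% of all genes. Kera and Epyc, which follow Lum on the chromosome, held 0 counts in every library, and Nyx held too few counts to be tested. Tsku was measured at 92.3 ± 32.5 CPM (SD) in high fat livers and 84.3 ± 30.1 CPM in control livers (log2 fold change 0.13 ± 0.19 SE, adjusted p = 0.616). Podn had a log2 fold change of 0.45 ± 0.21 SE (adjusted p = 0.0855), and Omd, between Aspn and Ogn, one of 0.32 ± 0.72 SE (adjusted p = 0.749).

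Of all genes tested, 13.2% were called higher and 4.99% lower, and the counts of the following gene lists are read beside these shares. Among enzymes that build the sugar chains, 6 of 22 genes of chondroitin and dermatan sulfate synthesis were higher and 0 lower by edgeR (8 and 0 by DESeq2, 7 and 1 by limma-voom, 9 and 0 with library totals; 10 and 4 at an unadjusted p under 0.05), with a median log2 fold change of 0.27 against -0.03 over all genes. They were the sulfotransferases Chst11, Chst12 and Chst14, the xylosyltransferase Xylt1, which starts the chain, and the polymerizing enzymes Chpf and Chsy1. Chst11 rose the most (2.78 ± 0.41 SE, adjusted p = 1.16e-05), from 0.231 to 1.67 CPM. Its counts were low, at 12 to 74 in high fat and 0 to 14 in control livers, as were those of Xylt1 (6 to 58 and 0 to 23). Of 6 tested genes of keratan sulfate synthesis, 2 were higher by edgeR and limma-voom, 3 by DESeq2 and 4 with library totals. Those called by edgeR were B4galt4 (1.18 ± 0.19 SE, adjusted p = 3.56e-05) and B3gnt7 (3.21 ± 0.70 SE, adjusted p = 8.12e-04), the latter with 0 to 21 counts per library.

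All 10 tested chains of collagens that bind the family were higher, with a median log2 fold change of 2.07, from 0.71 for Col14a1 to 3.12 for Col1a1. Of 18 growth factors and receptors that bind decorin or biglycan, 8 were higher and 2 lower. Tgfb2 rose the most (2.49 ± 0.54 SE, adjusted p = 7.98e-04), at 7 to 293 counts in high fat and 2 to 16 in control livers; without high fat replicate 9 its log2 fold change was 1.72, still called and still the highest of the list. Tlr2, a receptor of soluble biglycan, rose by 1.65 ± 0.19 SE (adjusted p = 9.64e-07). The 2 that fell were Egfr, which decorin binds (-1.53 ± 0.34 SE, adjusted p = 0.00104), and Bmp2 (-0.68 ± 0.16 SE, adjusted p = 0.00189). Of 12 tested proteases that process or cleave the family, 5 were higher, among them Mmp12 (3.98 ± 0.50 SE, adjusted p = 2.04e-06; 4.76 without control replicate 6), and Bmp1, which removes the propeptides of biglycan and procollagen, was lower (-0.76 ± 0.11 SE, adjusted p = 8.26e-06). Of 18 other tested proteoglycans, 6 were higher, with versican (Vcan) at the top (2.67 ± 0.51 SE, adjusted p = 1.91e-04), and Sdc2 was lower (-0.74 ± 0.14 SE, adjusted p = 1.89e-04). With scaling by library totals Bmp2, Bmp1 and Sdc2 kept a negative sign and were no longer called.

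Markers of cell types that could hold these transcripts were called higher in part, and their part in the changes of the family was not tested. Of 11 tested markers of activated stellate cells or myofibroblasts 9 were higher by edgeR, while Acta2 (0.53 ± 0.19 SE, adjusted p = 0.0300) and Tagln (0.47 ± 0.19 SE, adjusted p = 0.0532) were not called. By limma-voom, and by edgeR with library totals, all 11 of these markers were called higher. Their summed level was 124 to 909 CPM in high fat livers and 54.6 to 200 CPM in control livers. Spp1 (osteopontin), which cholangiocytes also express and whose count enters their list too, made up a median of 64.4% of that sum in high fat livers, and without it the sum was 74.0 to 180 CPM and 32.1 to 83.3 CPM. Of 11 tested portal fibroblast markers 7 were higher (49.4 to 209 CPM against 37.5 to 59.1 CPM), of 10 mesothelial markers 3 were higher (12.2 to 57.1 CPM against 8.65 to 16.0 CPM), and of 8 smooth muscle markers 3 were higher (22.9 to 43.8 CPM against 14.1 to 27.1 CPM). Des, 1 of those 3, is also on the activated stellate list, and the uncalled smooth muscle markers Myh11 (-0.51), Cnn1 (-0.54) and Actg2 (-0.59) had negative log2 fold changes. Krt7, the largest rise of the mesothelial list (2.71, and 1.77 without high fat replicate 9), is also on the cholangiocyte list. Of 12 markers of quiescent stellate cells 3 were higher, with a median log2 fold change of 0.24 and summed levels that overlapped over most of their range (341 to 542 CPM against 273 to 632 CPM). With library totals 5 quiescent stellate and 5 mesothelial markers were called higher. The defining marker Mfap5 of portal fibroblasts was too low to be tested, as was Cthrc1 among the myofibroblast markers.

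Among markers of other cells, 9 of 12 macrophage markers (765 to 1563 CPM against 169 to 736 CPM) and 6 of 7 tested cholangiocyte markers (36.5 to 913 CPM against 32.1 to 138.5 CPM, and 10.2 to 184 CPM against 9.55 to 21.5 CPM without Spp1) were higher, 1 of 8 sinusoidal endothelial markers (Stab2) was higher, 0 of 6 T cell markers were called (edgeR, DESeq2 and limma-voom; 1 higher and 1 lower at an unadjusted p under 0.05), and 6 of 8 hepatocyte markers were lower. By limma-voom 4 cholangiocyte markers were called higher. Without high fat replicate 9 edgeR called 5 of them. Cftr, the largest rise of that list over all 24 libraries, was then no longer called. Its log2 fold change went from 3.10 to 2.05, and it ranked 2 in the list. Within the Xist-high set 5 markers of activated stellate cells, 2 of portal fibroblasts and 6 of macrophages were called higher, against 9, 8 and 9 in the Xist-low set. Quiescent stellate, mesothelial, smooth muscle, cholangiocyte and T cell markers had 0 such calls in the Xist-high set. In the Xist-low set they had 4, 2, 3, 5 and 3. These differences were not tested, and the share of all genes called higher was 2.9% in the Xist-high and 14.4% in the Xist-low set. In the Xist-low set 1 portal fibroblast marker was also called lower, where 1431 genes were. With scaling by library totals 2 hepatocyte markers, Cps1 and Serpina1c, were called lower.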

How the data were processed

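The file that the authors deposited holds counts per Ensembl gene as whole numbers, without scaling, from poly(A)-selected whole-liver RNA. The submitters' processing notes name bcl2fastq, STAR 2.7.3a and mm10; the study's methods name a stranded kit, the exon quantification pipeline and PISCES for reads aligned to the human genome, and the counting program, annotation and use of strand for these mouse libraries are not given in the sources used here. Symbols, coordinates and exon lengths came from GENCODE M21, and 51745 IDs matched; the other 4460 held 0.0723% of the counts. Diet came from the labels.

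The diets were compared with edgeR 4.0.16 in R 4.3.3 (quasi-likelihood test with TMM factors and a diet term alone), and p-values were Benjamini-Hochberg adjusted over the 17913 genes that had 1 or more counts in 12 or more libraries. The study's thresholds were used (adjusted p no higher than 0.01, log2 fold change beyond 0.5 in either direction). CPM and RPKM use TMM-scaled totals. Ratios used counts + 0.5 and correlations log2(CPM + 1), with permutation tests of 100000 resamples; for correlations, permutation was within sets. The sets of libraries were split at 1000 Xist counts. On simulated counts of 17913 genes the diet test recovered 55% of 100 genes changed by 1 and 81% of 100 changed by 2 on the log2 scale, and called 0 unchanged genes.

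The members, gene lists and tests were chosen with earlier results of these data known. Named genes were the members, list genes among 5 or fewer calls or with the largest change, the 3 genes most like each member, neighbors, Xist and Ddx3y; other list genes named (Tsku, Podn, Tlr2 and the 6 chondroitin sulfate calls), Col14a1, Mfap5, Cthrc1, Spp1, Acta2, Tagln, Des, Myh11, Cnn1 and Actg2 were added after their values were seen. The result of 1 marker gene is not reported here. Tools for alternatives were DESeq2 1.42.0, limma 3.58.1 and sva 3.50.0. The most similar pair of libraries within a diet still differed beyond sampling noise (chi-square per degree of freedom 10.1).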

Additional observations from a re-analysis of the deposited data

Results flagged for a closer look

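The diet effect on Lum differed between the sets of libraries. The log2 fold change was larger in the Xist-low than in the Xist-high libraries by 1.80 ± 0.36 SE (edgeR interaction test, adjusted p = 0.00236, 6 libraries per diet and set). It was called with DESeq2, with library totals and in each of the 24 fits that left out 1 library, where it ranged from 1.66 to 2.26. In the Xist-low set 6 of 6 high fat libraries were above every control library, and in the Xist-high set 6 of 6 were too. The other 6 members were not called in this test.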

How the results depend on the processing

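The rises of Lum, Fmod, Bgn, Prelp and Dcn were called under DESeq2, limma-voom, library totals, DESeq2's size factors, the other filters on low counts that kept them, the replicate block, the set as a covariate and 1 surrogate variable; Fmod was removed by the filter that asked for 10 counts in all libraries. Over these fits log2 fold changes ranged from 1.92 to 2.44 for Lum, 1.90 to 2.38 for Fmod, 1.18 to 1.51 for Bgn, 0.80 to 1.08 for Prelp and 0.66 to 0.94 for Dcn, with an adjusted p of at most 0.00647. Library totals moved the median of all genes to 0.26 from -0.03; relative to it Lum was at 2.18 and Dcn at 0.68, and Ogn turned to 0.12. Of all calls, 72.6% were higher with TMM and 94.4% with library totals (3827 higher, 226 lower).

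In the Xist-high libraries alone Dcn (0.28), Bgn (0.68), Fmod (0.99) and Prelp (0.40) were no longer called, leaving 1 member; 678 genes were called, 520 higher and 158 lower. The Xist-low libraries gave 1431 lower calls. A log2 fold change over 1 left 3 members, 1906 genes and 216 lower calls; an adjusted p of at most 0.05 gave 7097 genes (3709 higher, 3388 lower); 10 counts in all libraries gave 1833 genes (1230 higher). The interaction was called for Dcn with library totals (1.09) and DESeq2 (0.80) and for Bgn with DESeq2 (1.04). Bgn against Fmod missed the threshold with counts + 2 (adjusted p = 0.0569). With the longest transcript the shares of Bgn were 51.6% and 46.2% in high fat and control livers, those of Prelp 18.4% and 20.95%, and that of Lum in control livers 3.02%. Some of these settings held fewer libraries or genes, and the causes of these shifts were not tested.

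Leaving out 1 library kept 5 members called in all 24 fits (Lum 1.99 to 2.26, Dcn 0.61 to 0.71). The interaction ranged from 0.71 to 0.94 for Dcn, 0.85 to 1.22 for Bgn and -0.22 to 0.29 for Ogn, and the difference of Lum and Fmod from -0.19 to 0.15. Several larger list counts moved. Activated stellate markers called higher numbered 8 to 10, growth factors and receptors 7 to 8, and other proteoglycans 5 to 6. Hepatocyte markers called lower numbered 5 to 7. List counts of 0 or 1 over all 24 libraries moved as follows. Without control replicate 11, 1 other family gene was called higher, and without control replicate 6, 1 T cell marker was. Stab2 was lost without high fat replicate 3 or control replicates 4, 7 or 12. Lower calls reached 2 for chondroitin sulfate enzymes without high fat replicate 3 or control replicate 7 and 1 without high fat replicates 1 or 4 or control replicates 6, 8, 9 or 10, and 2 for other proteoglycans without high fat replicates 1, 3 or 5 or control replicates 6, 7, 8, 11 or 12, each left out alone. With the replicate number as a block 2907 genes were called (2063 higher, 844 lower) and the 5 members were called too. The numbers were not taken to pair animals: same-numbered libraries correlated at -0.10 to 0.58 in their deviations, and 2 of 12 high fat libraries correlated best with their own number. At this depth 3 counts equal 0.118 to 0.305 CPM, which limits Aspn in nearly every library and Ogn in 2.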
